A study of Mus musculus with 6 samples.

Results

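The cytosolic ribosomal proteins form the protein part of the ribosome that makes nearly all cellular proteins. They were followed here in the white fat of mice with a duplicated stretch of chromosome 7. Members were chosen by name in the scanner files: genes called Rpl or Rps with a number, together with Rpsa, Rplp0, Rplp1 and Rplp2, and without the Rps6k kinases. The arrays carried 83 such genes on 136 probes. Probes had to exceed background clearly, by the scanner's own mark, on 3 or more of the 6 arrays, and each gene was read from its brightest kept probe. This left 82 members of 19009 genes tested, 49 of the large and 33 of the small ribosomal subunit. The 1 gene that was not kept was Rpl3l, the muscle form of Rpl3, whose probe was well above background on 0 arrays.

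Total RNA came from the epididymal white fat of male C57BL/6 mice aged 9 to 10 weeks, a depot inside the abdomen that lies against the testis and epididymis. The 3 patDp/+ mice carry a paternally inherited extra copy of the mouse interval that corresponds to human 15q11-13. The 3 control mice were wild type. Each mouse was hybridised to 1 one-colour Agilent array, and no treatment was named for either group. Values are given on the log2 scale relative to the 75th percentile of the array, so a value of 0 is the signal at that percentile. Brightness depends on the probe as well as on the message, so values are compared between arrays and not between genes. In bulk tissue, fewer cells of a type and less RNA per cell cannot be told apart.

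The ribosome has a small subunit, which reads the messenger RNA, and a large subunit, which joins amino acids. Its proteins are needed in near equal numbers. Many of their messages begin at a C within a run of pyrimidines, the terminal oligopyrimidine tract, through which their translation is controlled by nutrient and growth signals acting through mTOR and the RNA-binding protein Larp1. Control of these proteins is therefore often exerted on translation, which a measurement of RNA abundance does not read.

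The start-site sequences of some members show this shared feature. RefSeq promoter entries (assembly GRCm38.p6) were matched for 61 members. A run of 6 or more C and T letters lay over the annotated first base in 19 of them (31.1%), against 2293 of 27025 symbols with an entry (8.48%). The windows of 30 bases below were picked from members described later to show both kinds, 6 with such a run and 3 without, so they do not stand for the share among members. The run over the first base is in capitals. The first base is the letter after 15 leading bases.
Rps6 (chr4:86857353-86857382, minus strand): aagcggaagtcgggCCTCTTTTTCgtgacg
Rplp2 (chr7:141447636-141447665, plus strand): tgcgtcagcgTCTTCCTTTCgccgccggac
Rpl31 (chr1:39367836-39367865, plus strand): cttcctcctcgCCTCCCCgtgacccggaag
Rpl27a (chr7:109519180-109519209, plus strand): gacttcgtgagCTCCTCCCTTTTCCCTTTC
Rpl14 (chr9:120571502-120571531, plus strand): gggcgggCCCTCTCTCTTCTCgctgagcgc
Rps27 (chr3:90213634-90213663, minus strand): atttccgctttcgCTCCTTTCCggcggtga
Rpl39 (chrX:37085208-37085237, minus strand): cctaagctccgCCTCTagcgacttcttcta
Rpl39l (chr16:10170213-10170242, plus strand): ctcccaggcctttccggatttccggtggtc
Rpl22l1 (chr3:28805493-28805522, plus strand): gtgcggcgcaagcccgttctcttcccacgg
The run was shorter than 6 letters in Rpl39, and neither Rpl39l nor Rpl22l1 had a pyrimidine at the annotated first base. The windows of Rplp0, Rpl4, Rpl5, Rpl11, Rpl6, Rpl22, Rpl26, Rpsa, Rps4x and Rps27l, not printed, also had none there. A run that lay only beside the annotated first base was not counted, as in Rpl4, where a run lies before it. The count therefore also depends on how exactly the starts are annotated, and a member left out of it may still have a tract. On the gene strand of the promoter entries, which reach from 250 bases before to 50 bases after the start, the letters CTCTTT were found in 37.7% of the 61 members and in 13.7% of all symbols. Over both strands the shares were 45.9% and 25.6%. The letters CTTTCC were found on the gene strand in 41.0% of members and 16.0% of all symbols, and on both strands in 52.5% and 29.3%. CTTCCTT was found on the gene strand in 13.1% and 6.06%, and on both strands in 18.0% and 11.8%. These motifs can overlap each other, and a match describes letters, not a site in use.

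The genotype labels were checked first with genes of the duplicated interval. Snrpn, an imprinted gene expressed from the paternal copy, was higher in patDp/+ by 1.19 ± 0.13 (log2 difference ± SE, limma), a 2.28-fold level. Ndn, also expressed from the paternal copy, was higher by 1.08 ± 0.13, or 2.12-fold. Ube3a, a ubiquitin ligase, was higher by 0.50 ± 0.07, or 1.41-fold. The groups did not overlap for any of the 3. Between 26086 and 29509 probes were well above background on an array. No gene of the 19009 tested passed a Benjamini-Hochberg adjusted p of 0.05 in limma, the smallest adjusted p being 0.344, and 1068 had an unadjusted p under 0.05. Markers of adipocytes were measured for 10 of 10 listed genes. Their summed log2 level was 11.29 to 11.56 in wild type and 11.27 to 11.35 in patDp/+, and 8 of the 10 had negative differences, with a median of -0.09 that was -0.01 with quantile normalization and -0.03 without wild type replicate 1.

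The members' messages did not differ detectably between genotypes. None of the 82 passed the adjusted threshold (0% of all genes did), and the smallest adjusted p among them was 0.871. At an unadjusted p under 0.05, 0 members were higher in patDp/+ (2.7% of all genes) and 1 was lower (2.91% of all genes), against 5.62% of all genes in either direction. That gene was Rpl39l, the copy of Rpl39 known from male germ cells, which passed the filter through its 3 wild type arrays and so was favoured to appear lower. The other 81 members had log2 differences between -0.10, for Rps28, and 0.13, for Rpl31. For 81 of the 82 members the 95% interval of the difference lay within 1.5-fold either way, a bound met by 74.2% of all genes. The exception was again Rpl39l.

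**Figure D1:**
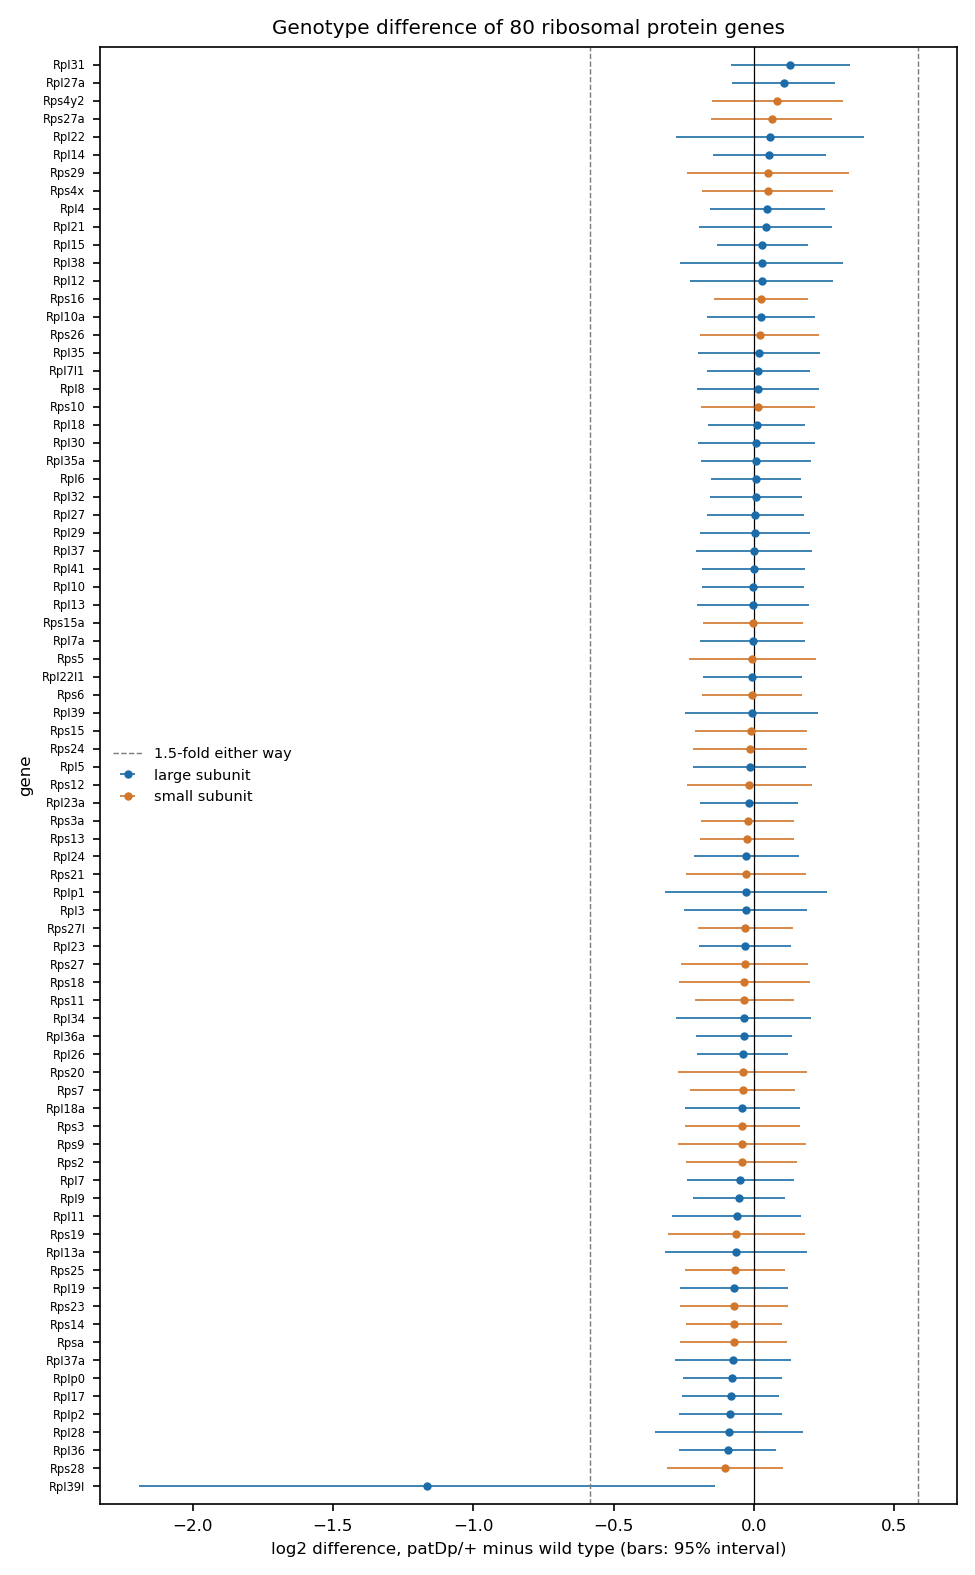
Log2 difference between patDp/+ and wild type (horizontal axis) for 80 of the 82 ribosomal protein genes (vertical axis), with limma's 95% interval as a bar, 3 arrays a group except for Rpl13a. Every interval except that of Rpl39l lies between the dashed lines at 1.5-fold, and every interval except that of Rpl39l includes 0.

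In direction, 28 members were higher and 54 lower in patDp/+, and 52.5% of all genes were lower. The median difference over members was -0.02, against -0.01 over all genes. Values did not overlap between the groups for 5 members, all lower in patDp/+ (5.85% of all genes did so in this direction): Rpl17, Rpl26, Rpl36, Rpl39l and Rplp2. In the other direction 0 members and 5.29% of all genes did so. The count of lower members moved with the processing and with single libraries. It was 78 with normexp background correction, 41 in the authors' deposited quantile-scaled table and 24 without wild type replicate 1. Leaving out wild type replicate 2 raised it instead. Rpl13a was fitted without wild type replicate 2, where its spot was an outlier, and its difference was -0.06.

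**Figure D2:**
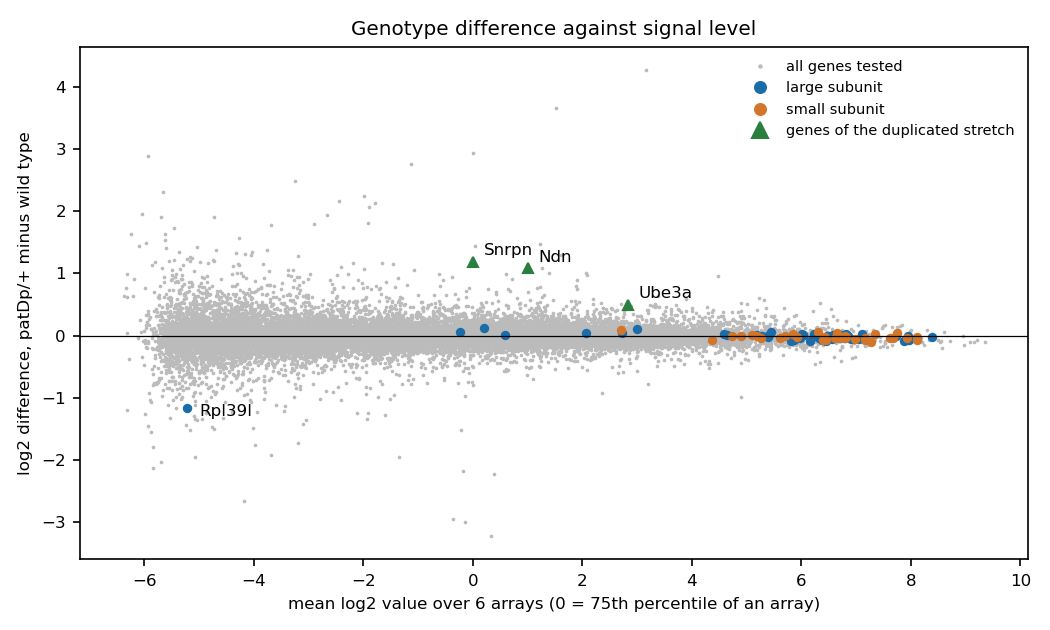
Log2 difference between genotypes (vertical axis) against the mean log2 value over 6 arrays (horizontal axis), 1 point per gene. Grey points are all 19009 genes, coloured points the 82 ribosomal protein genes, and triangles Snrpn, Ndn and Ube3a; 74 ribosomal protein genes lie among the brightest 10% of genes, close to 0, while Rpl39l lies at the dim end.

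Large subunit members divided into 21 higher and 28 lower, with a median of -0.004. Small subunit members divided into 7 higher and 26 lower, with a median of -0.03 and a range from -0.10 to 0.08. Under the 19 alternative settings the median ranged from -0.15 to 0.03 for the large and from -0.16 to 0.02 for the small subunit. The difference between the subunits was not tested.

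The P stalk is the flexible arm of the large subunit that recruits elongation factors, built on Rplp0 with Rplp1 and Rplp2 attached. Rplp0 had values of 8.05, 7.95 and 7.96 in wild type replicates 1 to 3 and 7.97, 7.88 and 7.89 in patDp/+ replicates 1 to 3. The groups overlapped only through patDp/+ replicate 1, and the difference was -0.08 ± 0.07 (limma, adjusted p = 0.934). Rplp2 had values of 8.01, 7.88 and 7.87 in wild type and 7.87, 7.80 and 7.85 in patDp/+. Its patDp/+ values all lay below the wild type values, though the nearest pair is equal at 2 decimals, with a difference of -0.08 ± 0.08 (limma, adjusted p = 0.934). Rplp1 had values of 8.61, 8.25 and 8.35 in wild type and 8.46, 8.26 and 8.42 in patDp/+. Its groups overlapped fully, with a difference of -0.03 ± 0.12 (limma, adjusted p = 0.990), and its sign turned when wild type replicate 1 (0.08) or patDp/+ replicate 2 (0.03) was left out.

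Among the other large subunit members, Rpl31 stood highest in patDp/+. It is a protein near the exit of the peptide tunnel. Its values were 0.08, 0.16 and 0.17 in wild type and 0.29, 0.37 and 0.14 in patDp/+. Replicates 1 and 2 of patDp/+ lay above wild type and replicate 3 lay within it, and the difference was 0.13 ± 0.09 (limma, adjusted p = 0.911). Rpl27a had values of 2.90, 2.99 and 2.93 in wild type and 3.04, 3.12 and 2.98 in patDp/+. The groups overlapped through patDp/+ replicate 3, with a difference of 0.11 ± 0.08 (limma, adjusted p = 0.922). Rpl14 and Rpl4 differed by 0.06 ± 0.08 and 0.05 ± 0.08. Rpl36 lay lower, with 6.28, 6.21 and 6.16 in wild type and 6.12, 6.15 and 6.09 in patDp/+. Its groups did not overlap, and the difference was -0.09 ± 0.07 (limma, adjusted p = 0.933). Rpl17 had values of 6.53, 6.46 and 6.49 in wild type and 6.44, 6.35 and 6.44 in patDp/+. Its groups also did not overlap, with a difference of -0.08 ± 0.07 (limma, adjusted p = 0.934). None of these differences passed the unadjusted threshold. Rpl31, Rpl27a, Rpl14 and Rpl4 were dimmer than most members. They lay outside the brightest class of genes (classes of equal size), which held 74 of the 82 members. The other members outside it were Rpl21, Rpl7l1 and Rps4y2, with differences of 0.04, 0.02 and 0.08, and Rpl39l, which was lower. Whether low signal has a part in these directions was not tested.

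Rpl5 and Rpl11, which together with 5S RNA form a particle that binds the p53 regulator Mdm2 when ribosome assembly fails, differed by -0.02 ± 0.08 and -0.06 ± 0.09. All 7 listed members that bind Mdm2 had negative differences, from -0.07 to -0.02, and the count of lower genes fell to 3 in the authors' deposited table and without wild type replicate 1. None of the 7 had an unadjusted p under 0.05. The 18 members known from Diamond-Blackfan anaemia, a red cell failure caused by loss of 1 copy of a ribosomal protein gene, divided into 8 higher and 10 lower, with a median of -0.01 and a range from -0.10 to 0.13. This division rested on single libraries: 2 were lower without wild type replicate 1 and 16 without wild type replicate 2, and 17 were lower with normexp.

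In the small subunit, Rps28 had the lowest difference. Its values were 7.46, 7.29 and 7.25 in wild type and 7.26, 7.25 and 7.18 in patDp/+. Wild type replicate 1 stood above the rest, the other arrays overlapped, and the difference was -0.10 ± 0.09 (limma, adjusted p = 0.934). Rps6, the substrate of the S6 kinases that act below mTOR, had values of 4.74, 4.71 and 4.75 in wild type and 4.68, 4.81 and 4.69 in patDp/+. The groups overlapped, and the difference was -0.01 ± 0.07 with a 95% interval from -0.18 to 0.17. Rpsa, which was also described as a laminin receptor, differed by -0.07 ± 0.08. Its sign depended on the probe, since the mean over its kept probes gave 0.02 and its dimmest kept probe 0.11. Rps27a, made as a fusion with ubiquitin, differed by 0.06 ± 0.09, and its sign turned under normexp (-0.08) and without wild type replicate 2 (-0.01).

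Mammals carry expressed copies of some of these genes, which can replace the usual protein in certain tissues. Probes of the 5 copies measured shared at most 8 bases in a row with the probes of the gene they resemble. Only probes were compared with each other, so whether a probe also reads the partner's message was not tested. Rpl22l1 had values of 5.28, 5.29 and 5.26 in wild type and 5.28, 5.20 and 5.34 in patDp/+, with a difference of -0.01 ± 0.07. Rpl22 had 5.64, 5.48 and 5.14 in wild type and 5.48, 5.55 and 5.41 in patDp/+, with a difference of 0.06 ± 0.14. Rpl22 varied more within groups than any member but Rpl39l, with a within-group SD of 0.185, through its high wild type replicate 1 and low wild type replicate 3. The pairs Rps27l and Rps27 differed by -0.03 ± 0.07 and -0.03 ± 0.09, where the Rps27 probe was placed on another chromosome than the gene. Rpl7l1 and Rpl7 differed by 0.02 ± 0.08 and -0.05 ± 0.08. Rps4y2, now named Rps4l, differed by 0.08 ± 0.10, and Rps4x by 0.05 ± 0.10. The differences between a copy and its partner were not tested.

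**Figure D3:**
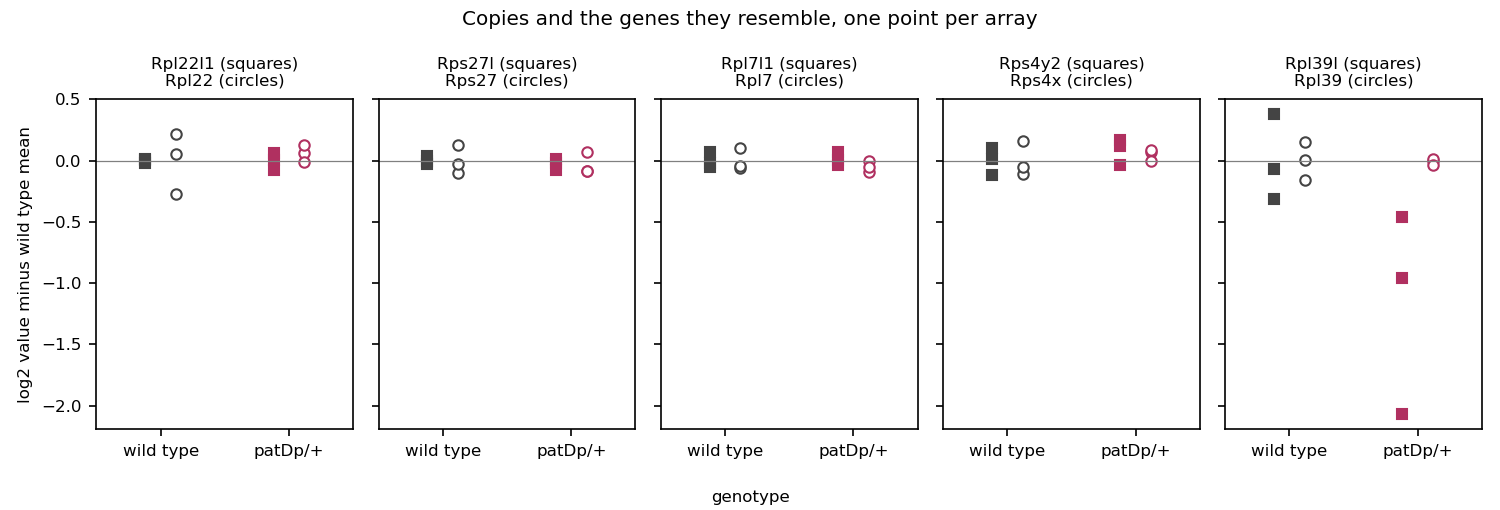
Log2 value of each copy (squares) and of the gene it resembles (circles) minus that gene's own wild type mean (vertical axis), by genotype (horizontal axis), 1 point per array. In 4 pairs all points lie within 0.3 of the wild type mean, and in the fifth Rpl39l lies below its wild type mean on all 3 patDp/+ arrays while Rpl39 does not.

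Rpl39l had the lowest p of the members, and did not pass after adjustment. Its probe lies at chr16:10174657-10174716 on mm9, and the first 30 of its 60 bases are shown beside those of its second probe, since the call rests on the first alone. No letters are in capitals here.
Rpl39l, kept probe: ctgtgctttagtgagttcattcagcagttc
Rpl39l, second probe: tcatctgcataatagacaagtattctatca
The kept Rpl39l probe gave -4.72, -4.96 and -4.27 in wild type and -5.11, -6.72 and -5.61 in patDp/+. All patDp/+ values lay below all wild type values, with replicate 2 of patDp/+ far below the others. The signal was close to background: the probe was well above background on 3 wild type arrays and on 1 patDp/+ array, and the second probe on 0 arrays. It met the filter through the wild type arrays, a selection that favours a lower patDp/+ value, so its difference is a description only. As fitted, on values of which those from 2 patDp/+ arrays were not well above background, it was -1.16 ± 0.42 (limma, adjusted p = 0.871), with a 95% interval from -2.19 to -0.14. Under normexp background correction the difference reversed to 0.39 ± 0.47, with an adjusted p of 0.684 in limma. In the authors' deposited table it was -0.27 ± 0.08, and without patDp/+ replicate 2 it was -0.71 ± 0.26, both still at an unadjusted p under 0.05 in limma. It missed that threshold without wild type replicate 1 (-1.20 ± 0.52), wild type replicate 3 (-0.97 ± 0.48) or patDp/+ replicate 3 (-1.27 ± 0.50). Over the alternatives that measured it, limma gave adjusted p-values from 0.537 to 1.00. Rpl39 itself had 6.67, 6.36 and 6.52 in wild type and 6.52, 6.53 and 6.49 in patDp/+, with a difference of -0.01 ± 0.10.

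Because Rpl39l is known from male germ cells and the depot lies beside the testis, markers of testis and epididymis were read on the same arrays. Of 10 listed genes 3 were kept, and Crisp1, Defb1, Lcn5, Lcn8, Adam7, Spag11a and Insl3 were not. Their summed log2 level was -2.16 to -2.05 in wild type and -2.64 to -2.17 in patDp/+. The protamine gene Prm1, which packs sperm DNA, differed by -0.56 ± 0.43, with patDp/+ replicate 1 at -4.62 and the other 5 arrays between -3.13 and -2.96. Prm2 and Tnp1 differed by -0.01 ± 0.16 and -0.14 ± 0.11. With normexp background correction all 3 turned higher, with a median of 0.54, as Rpl39l did. This was not particular to these genes. The medians of skeletal muscle, B cell, T and NK cell and dividing cell markers rose to 0.57, 0.32, 0.44 and 0.22 with it. Those of the remaining marker lists fell, as for macrophages (0.15). The part of such cells in the Rpl39l values was not tested.

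The members moved together most plainly on 1 array, wild type replicate 1. Each member was expressed as its deviation from its own mean over the 6 arrays. The median deviation was 0.10, -0.04 and -0.02 in wild type replicates 1 to 3 and 0.001, 0.02 and -0.04 in patDp/+ replicates 1 to 3. Wild type replicate 1 was the highest array for 60 of 82 members (73.2%). It was the highest for 19.1% of the other 1827 genes among the brightest 10% and for 20.1% of all genes. The lowest array was wild type replicate 2 for 31 members and patDp/+ replicate 3 for 25, and the shares of all genes were not counted for these. Both subunits followed the same order at the top, with 35 of 49 large and 25 of 33 small subunit members highest on wild type replicate 1.

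**Figure D4:**
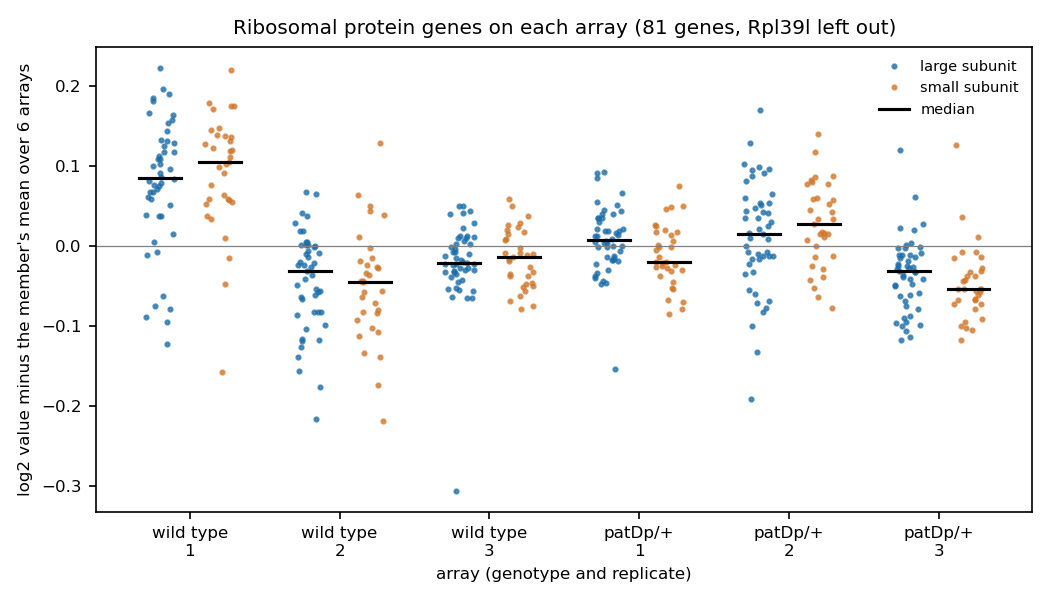
Log2 value of each ribosomal protein gene minus its mean over the 6 arrays (vertical axis), by array (horizontal axis), with medians of the large and small subunit as bars; Rpl39l is left out. Both medians are highest on wild type replicate 1 and lie within 0.06 of 0 on the other 5 arrays.

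The scanner files place same-numbered replicates on the same slide, with 1 array of each genotype on each of 3 slides. Within slides the median difference over members was -0.10 on slide 1, 0.07 on slide 2 and -0.03 on slide 3. On slide 1, 71 of 82 members were lower in patDp/+ (86.6%, against 47.1% of all genes). On slide 2 it was 20 of the 80 with a value on both arrays (25%, against 53.4%), and on slide 3 60 of 82 (73.2%, against 53.6%). The same sign on all 3 slides was found for 13 members. Of these 11 were lower (13.4%), close to the 14.5% of all genes, and 2 higher (2.44%, against 11.2% of all genes). The other genes among the brightest 10% had medians of -0.01, -0.06 and 0.03 on the same slides. Rplp0, Rplp2, Rpl36 and Rps28 were among the 11, and Rpl27a and Rps4y2 were the 2 that were higher.

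Differences between mice were small. The median within-group SD over members was 0.0782 on the log2 scale, against 0.106 for the other genes among the brightest 10% and 0.146 for all genes. Of the 82 members, 67 had an SD below the median of the other genes in their own brightness class (all genes in 10 classes of equal size). The smallest values were 0.0234 for Rpl6 and 0.0249 for Rpl26, a member that binds Mdm2. Rpl6 had values of 6.02, 6.03 and 6.02 in wild type and 6.00, 6.06 and 6.03 in patDp/+, which overlapped. Rpl26 had values of 6.86, 6.79 and 6.81 in wild type and 6.79, 6.78 and 6.77 in patDp/+, which did not overlap, though the nearest pair is equal at 2 decimals, with a difference of -0.04 ± 0.07.

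More than 1 kept probe was available for 40 members, with 90 probes in all. Their probes had only negative differences in 22 members, only positive ones in 7 and both signs in 11. The 50 probes that were not the brightest had a median difference of -0.02 and a range from -0.21 to 0.18. Ribosomal protein genes have many processed pseudogenes, and RefSeq lists 321 mouse symbols of this kind for them. Of 81 member probes with a position, 27 spanned more than 70 bases of genome and so crossed a splice junction. The probe named Rps27 was placed on chromosome 9 (chr9:114891515-114891574, mm9) and that named Rps29 on chromosome 2 (chr2:172335024-172335083, mm9), whereas the genes lie on chromosomes 3 and 12. Whether these probes also read copies elsewhere was not tested. Both genes are counted among the members known from Diamond-Blackfan anaemia, and Rps27 is the partner of Rps27l above.

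Chromosome 7 carried the probes of 14 members. Probes for Ube3a, Snrpn and Ndn lie between positions 66560207 and 69493906 of that chromosome on mm9. The nearest member on the side of lower positions was Rpl18, at chr7:52974958-52975300. Of the 14 members 3 were higher and 11 lower, with a median of -0.03 and a range from -0.09 to 0.11, and the number lower ran from 3 to 13 over the alternatives.

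Genes that work with the ribosome showed few differences at an unadjusted p under 0.05, and none after adjustment. Among ribosomal or ribosome-bound proteins outside the naming rule, Fau differed by -0.02 ± 0.07. Gnb2l1, now named Rack1, differed by 0.00 ± 0.08 and Rpl36al by 0.02 ± 0.07. Elongation factors divided into 6 higher and 2 lower of 8, with 0 at an unadjusted p under 0.05. Eef2k, the kinase that inhibits the elongation factor Eef2, differed by 0.33 ± 0.13 (limma, adjusted p = 0.875), and Eef2 by -0.08 ± 0.07. Of 35 initiation factors 11 were higher and 24 lower, with 0 at an unadjusted p under 0.05 and a median of -0.04. Eif3m, Eif1 and Eif5 differed by -0.12 ± 0.07, -0.09 ± 0.07 and -0.13 ± 0.09. Eif2b5, named after its values were seen, stood at -7.60 on 1 array, patDp/+ replicate 1, and at 1.21 to 1.51 elsewhere.

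Other messages with a terminal oligopyrimidine tract, measured for 24 of 25 genes, had 8 higher and 16 lower and a median of -0.03. Only Vim, which encodes the filament protein vimentin, had an unadjusted p under 0.05. It had values of 6.14, 6.42 and 6.38 in wild type and 6.67, 6.54 and 6.53 in patDp/+. The groups did not overlap, and the difference was 0.27 ± 0.10 (limma, adjusted p = 0.875). Npm1 and Nap1l1 differed by -0.15 ± 0.08 and 0.14 ± 0.09. The 58 ribosome assembly genes divided evenly into 29 higher and 29 lower. Among them Rcl1, which acts in ribosomal RNA processing, had the only unadjusted p under 0.05, at -0.38 ± 0.11 (limma, adjusted p = 0.867). Its values were 1.27, 0.99 and 1.08 in wild type and 0.81, 0.83 and 0.58 in patDp/+, without overlap. Eftud1, now named Efl1, differed by 0.19 ± 0.08.

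RNA polymerase I and its factors, which make the ribosomal RNA precursor, divided into 9 higher and 11 lower of 20, with 0 at an unadjusted p under 0.05. Taf1d, Polr2l and Twistnb differed by -0.17 ± 0.08, 0.11 ± 0.11 and -0.09 ± 0.08. The 27 controllers of ribosomal protein translation had 11 higher and 16 lower, with 1 in each direction at an unadjusted p under 0.05. Tia1, which represses messages with pyrimidine tracts, had values of 0.28, 0.33 and 0.29 in wild type and 0.12, 0.08 and 0.08 in patDp/+. The groups did not overlap, and the difference was -0.21 ± 0.07 (limma, adjusted p = 0.867). Deptor, an inhibitor of mTOR, had values of 3.85, 4.18 and 4.10 in wild type and 4.27, 4.26 and 4.47 in patDp/+. The groups did not overlap either, and the difference was 0.29 ± 0.12 (limma, adjusted p = 0.875). Tsc1, whose protein restrains mTOR, differed by -0.16 ± 0.09, and Mtor and Larp1 themselves by -0.07 ± 0.11 and 0.07 ± 0.11.

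Markers of other cell types were read beside the members. Of 15 measured T and NK cell markers, 14 were higher in patDp/+, 6 of them at an unadjusted p under 0.05, and 1 was lower at that threshold, with a median difference of 0.39. The median was 0.26, with 12 of 15 higher, without patDp/+ replicate 1, and 0.23 in the authors' deposited table. The summed log2 level of these markers was 3.01 to 3.26 in wild type and 3.05 to 3.17 in patDp/+. All 9 measured B cell markers were lower, 4 at an unadjusted p under 0.05, with a median of -0.60 and a summed level of 0.97 to 1.45 in wild type and -0.06 to 1.05 in patDp/+. With normexp background correction 3 of the 9 were lower and the median turned to 0.32. Without patDp/+ replicate 3 the median was -0.92. All 12 macrophage markers were higher, 0 of them at an unadjusted p under 0.05, with a median of 0.25. That median was 0.15 without patDp/+ replicate 1 and with normexp, and 10 of 12 were higher without wild type replicate 3 or patDp/+ replicate 2. Of 10 endothelial markers 9 were lower, 1 at an unadjusted p under 0.05, with a median of -0.16. Fibroblast and progenitor markers had a median of 0.03, with 2 of 10 higher at that threshold. Skeletal muscle markers had a median of -0.03, with 1 of 4 higher at that threshold. Their differences ran from -0.51 to 1.30, with 2 higher and 2 lower. The summed log2 level of the skeletal muscle markers did not overlap, at 1.11 to 1.34 in wild type and 2.03 to 2.92 in patDp/+. Smooth muscle, mesothelial, red blood cell and dividing cell markers had medians of -0.15, 0.08, 0.15 and 0.06, with 0 at an unadjusted p under 0.05. Each of these medians changed sign when 1 array was left out, reaching 0.01, -0.06, -0.17 and -0.09 in the same order. The part of these cells in the members' values was not tested.

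**Figure D5:**
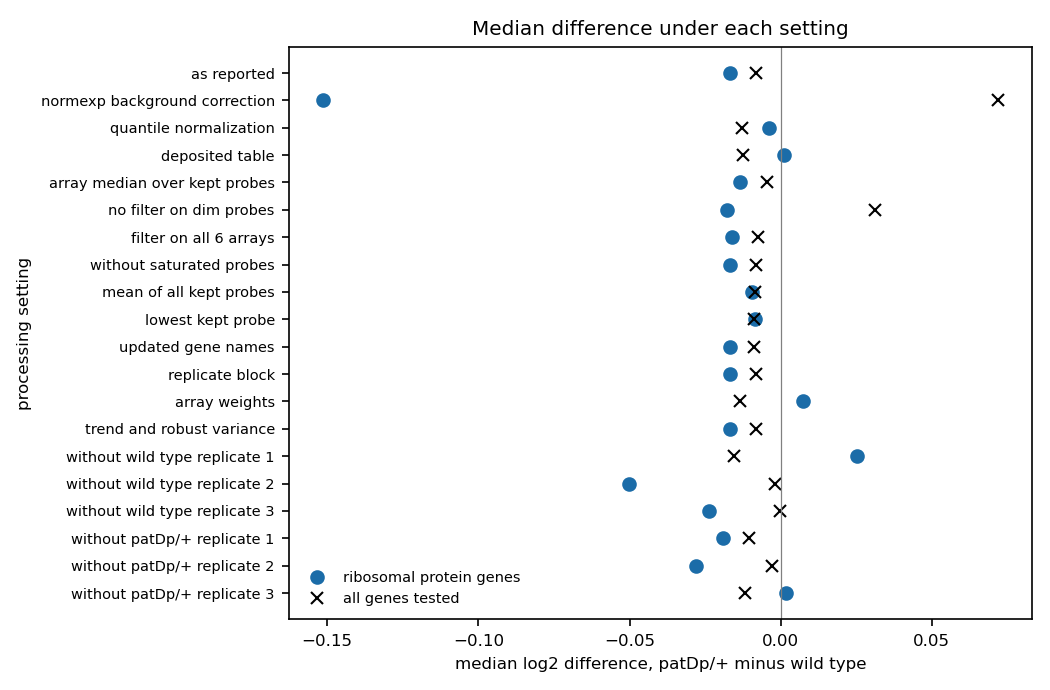
Median log2 difference between genotypes (horizontal axis) over the ribosomal protein genes (circles) and over all genes tested (crosses), under each processing setting (vertical axis). The circles lie between -0.05 and 0.03 except with normexp background correction, where the ribosomal protein median is -0.15 and the median of all genes 0.07.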

How the data were processed

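Per the file headers, Feature Extraction 9.5.1.1 read the arrays, and its processed signal is an intensity on a linear scale after background subtraction and detrending. The mean and local background intensity of each spot were also deposited. A table of log2 values that the authors deposited has columns with shared quantiles, and how its background was corrected is not stated. Agilent Feature Extraction 9.5 and limma 3.18.2 appear in the submitters' processing notes.

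Here, log2 of the processed signal minus each array's 75th percentile was used, with outlier spots left out and replicate spots averaged, which kept 27975 of 41174 probes at the filter on 3 arrays. Gene names are those of the scanner files. Probe coordinates are on mm9 as the files give them, and their place within a transcript was not analysed here. Groups came from the sample titles, since the source name reads as wild type for all samples. Genotypes were compared by two-sided moderated tests (lmFit, then eBayes, from limma 3.58.1 under R 4.3.3) on all 6 arrays with no covariate, with Benjamini-Hochberg adjustment over all 19009 genes and a threshold of 0.05. Errors after a difference are limma's standard errors, n = 3 arrays a group unless stated. Since the design text counts mice per group, p-values measure the spread between animals, and the number of arrays limits the precision. An exact permutation test of 3 against 3 cannot go below 0.1. On simulated data for this comparison over 19009 genes, 97% of genes changed by 1 on the log2 scale, and 97% of those changed by 2, had an unadjusted p under 0.05. The simulated noise was independent between genes, and smaller changes were not simulated. These shares therefore do not apply to changes as small as those of most members, or to the adjusted threshold.

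Members and lists were chosen with earlier results of these data known. The members named are the 6 with the smallest p in each direction, the P stalk, Rpsa, Rps6, Rps27a, Rpl5, Rpl11, the copies with their partners and the 2 with the largest and smallest SD. Mtor, Larp1, Rpl36al and Gnb2l1 were named in addition. From other lists the 3 genes with the smallest p were named. The 19 alternatives were other background corrections, scalings, filters, probe choices and variance models, the slide as a block, and each array left out. Some items are not reported here.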

Additional observations from a re-analysis of the deposited data

How the results depend on the processing

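Under the 19 alternatives no member other than Rpl39l reached an unadjusted p under 0.05. The member count of 1 became 0 with normexp background correction, where Rpl39l reversed to 0.39, and 0 with a filter on all 6 arrays, which drops that gene. It ran from 0 to 1 when 1 array was left out, being 0 without wild type replicate 1, wild type replicate 3 or patDp/+ replicate 3. The median over members was -0.15 with normexp and ran from -0.05 to 0.03 when 1 array was left out. The number of lower members was 78 with normexp and, when 1 array was left out, ran from 24, without wild type replicate 1, to 70, without wild type replicate 2. For all genes, the count at an unadjusted p under 0.05 was 1606 with array weights and ran from 752 to 1782, the latter without patDp/+ replicate 3. Of 1068 such genes 514 were higher, and with normexp 524 of 827 were. Of the 27 named members, 10 kept their sign under all alternatives and 17 did not. The causes were not tested. Replicate numbers equal slide numbers, but same-slide deviations correlated at 0.10, -0.09 and -0.04, so the numbers were not taken to pair the mice. With the replicate block, 971 genes and 1 member had an unadjusted p under 0.05, and Rpl39l had -1.16 (limma, adjusted p = 0.922). The depth of a one-colour array is limited by signal over background, which touched Rpl39l alone among the members.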
